A study of Mus musculus with 13 samples.

Results

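Metallothioneins are small cysteine-rich proteins that hold zinc and copper ions in the cell, and zinc transporters move zinc across membranes. The 9 genes described here were chosen by name: the metallothioneins Mt1 and Mt2, the zinc sensor Mtf1, the exporters Slc30a1 and Slc30a10, and the importers Slc39a4, Slc39a5, Slc39a8 and Slc39a14. They were picked with earlier results of the same comparison known. Their differences and adjusted p-values are therefore a description, and the number of them that passed supports nothing by itself. For a gene with several probe sets the one with the highest mean level over all arrays was to be taken. Each of the 9 had 1 probe set with its symbol alone, so this step made no choice. All 9 were found among the 19938 named genes.

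Livers came from male wild-type C57BL/6N mice aged 5 to 6 months, housed under spf conditions. The STZ group (n = 6) had been given streptozotocin, an alkylating agent that destroys pancreatic beta cells, by intraperitoneal injection of 65 mg/kg on each of 5 days in a row at an age of 10 to 16 weeks. The control group (n = 7) had been injected with citrate buffer, although the series' design text speaks of a standard diet for it. Tissue was taken 9 to 11 weeks after the injections, and each mouse gave 1 Affymetrix array. Streptozotocin can also act on tissues other than beta cells, and the labels used here give no blood glucose or insulin value, so the extent of diabetes in single mice is not known here. The arrays give log2 intensities normalised by robust multi-array average (RMA), so a difference of 1 is a 2-fold change in signal. Array medians ran from 6.22 to 6.31. Of 5 measured hepatocyte markers, the group means ran from 12.7 for Apob to 13.7 for Alb. Among them Cps1 was higher in STZ livers (0.16 ± 0.04, adjusted p = 0.0307 in limma) and Apoa1 (-0.23 ± 0.06, adjusted p = 0.0158) and Ttr (-0.18 ± 0.05, adjusted p = 0.0402) were lower. In whole liver, fewer cells of a type and less RNA per cell cannot be told apart.

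Zinc homeostasis in the hepatocyte has a storage arm and a transport arm. When free zinc rises, the transcription factor MTF-1, encoded by Mtf1, binds metal response elements and switches on Mt1, Mt2 and the exporter gene Slc30a1. In the liver Mt1 and Mt2 are also induced by glucocorticoids, by interleukin-6 acting through STAT3, and by oxidative stress, and Slc39a14 is the importer known for its induction by interleukin-6. ZnT proteins (Slc30a genes) take zinc out of the cytosol, and ZIP proteins (Slc39a genes) bring it in.

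In the RefSeq table of the GRCm38.p6 assembly the 4 metallothionein genes neighbour each other on chromosome 8 in the order Mt4, Mt3, Mt2 and Mt1, with 1 lncRNA gene between Mt3 and Mt2. The 250 bases before the RefSeq start of Mt1 and Mt2, whose levels moved together, and of Slc30a1, which shares the reported control by MTF-1, are shown from the RefSeq promoter table. They lie at chr8:94178839-94179088 for Mt1, chr8:94172368-94172617 for Mt2 and chr1:191906531-191906780 for Slc30a1, all on the plus strand of GRCm38.p6. Capitals mark the core of the metal response element, searched on both strands as TGCACNC and TGCGCNC, with overlapping matches counted.
Mt1: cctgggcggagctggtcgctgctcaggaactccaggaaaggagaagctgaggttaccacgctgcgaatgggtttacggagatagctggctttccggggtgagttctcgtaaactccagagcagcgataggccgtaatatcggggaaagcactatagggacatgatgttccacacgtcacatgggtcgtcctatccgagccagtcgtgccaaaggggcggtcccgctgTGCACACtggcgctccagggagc
Mt2: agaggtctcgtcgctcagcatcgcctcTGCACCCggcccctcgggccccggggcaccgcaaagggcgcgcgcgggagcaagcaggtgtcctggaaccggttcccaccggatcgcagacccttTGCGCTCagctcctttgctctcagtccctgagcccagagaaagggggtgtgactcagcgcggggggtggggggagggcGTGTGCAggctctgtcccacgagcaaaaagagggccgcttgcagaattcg
Slc30a1: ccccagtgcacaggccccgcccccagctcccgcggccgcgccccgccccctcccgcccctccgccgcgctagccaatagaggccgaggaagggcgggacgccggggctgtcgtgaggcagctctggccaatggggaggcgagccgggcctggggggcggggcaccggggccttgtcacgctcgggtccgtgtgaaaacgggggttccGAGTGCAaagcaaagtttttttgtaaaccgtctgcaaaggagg

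The Mt1 window held 1 match, the Mt2 window 3 and the Slc30a1 window 1. The window of Slc30a10, whose level did not pass between the groups, held 3, as many as that of Mt2. However, 2 of the 3 in Slc30a10 overlapped on opposite strands, so they formed 2 separate stretches, against 3 for Mt2. The window of Mtf1 held none, and Slc39a5 and Slc39a8, with 2 windows each, had 1 match in one window and none in the other. Of 32851 such windows of all genes, 21.4% held at least 1 match and 1.26% at least 3. With the 50 bases after the start added, the counts were 3 for Mt1 and for Slc30a10, 4 for Mt2 and 2 for Slc30a1. Of all 300-base windows, 1.97% held at least 3, 0.517% at least 4 and 7.11% at least 2. A match is a description of the letters and not a bound site. Each window follows 1 RefSeq start, and of these genes only Slc39a5 and Slc39a8 had 2 windows. Elements near any other start are not covered. The RefSeq start used for Mt1 may lie upstream of another start of this gene. Its count went from 1 to 3 with the 50 bases added, so 1 match may understate the elements near Mt1. Of the 9 genes 7 had an entry, and Slc39a4 and Slc39a14 had none.

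Both metallothioneins were far higher in every STZ liver than in any control. Mt1 levels were 8.47, 9.10, 8.13, 8.47, 8.11, 8.85 and 8.81 in control replicates 1 to 7, and 12.71, 12.40, 10.82, 11.65, 10.19 and 11.91 in STZ replicates 1 to 6. The highest control and the lowest STZ liver, replicate 5, were separated by a wide gap. The Mt1 mean went from 8.56 ± 0.37 (SD, n = 7) to 11.61 ± 0.96 (SD, n = 6), a log2 difference of 3.05 ± 0.32 (SE of the fit), or 8.29-fold (95% interval 5.16 to 13.3). The adjusted p was 2.03e-05 in limma, a linear model fitted to all 19938 genes, with Benjamini-Hochberg adjustment over all of them, as for each adjusted p below.

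Mt2, the second main hepatic isoform, was 8.56, 9.79, 8.64, 8.59, 8.19, 9.55 and 9.53 in controls and 13.27, 13.17, 12.53, 12.82, 11.93 and 13.01 in STZ livers, on the log2 scale. The groups again did not overlap, and STZ replicate 5 was again the lowest of its group. Its mean went from 8.98 ± 0.62 (SD, n = 7) to 12.79 ± 0.50 (SD, n = 6), a log2 difference of 3.81 ± 0.26, or 14.0-fold (95% interval 9.51 to 20.6, adjusted p = 2.91e-07 in limma). Among the 19938 genes Mt2 had the 4th and Mt1 the 8th largest increase. The 95% intervals of the log2 differences, 2.37 to 3.73 for Mt1 and 3.25 to 4.37 for Mt2, overlapped, and the difference between the 2 increases was not tested. Mt1 and Mt2 are close paralogs, so some probes of one could take up transcripts of the other, and whether they did was not tested.

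At the threshold of 0.05 for the adjusted p in limma, 2 of the 9 were called, both higher. In the background, 9.12% of the 19938 genes passed in either direction, 5.09% passed as higher, and the control and STZ values did not overlap for 3.86%. Mt1 and Mt2 were also the only 2 of the 9 whose groups did not overlap. Since the comparison was known when the genes were picked, nothing is read from these shares. At an unadjusted p under 0.05 there were 3 of 9, beside 4156 of the 19938 genes. The median difference of the 9 was 0.16, against -0.01 for all genes.

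**Figure D1:**
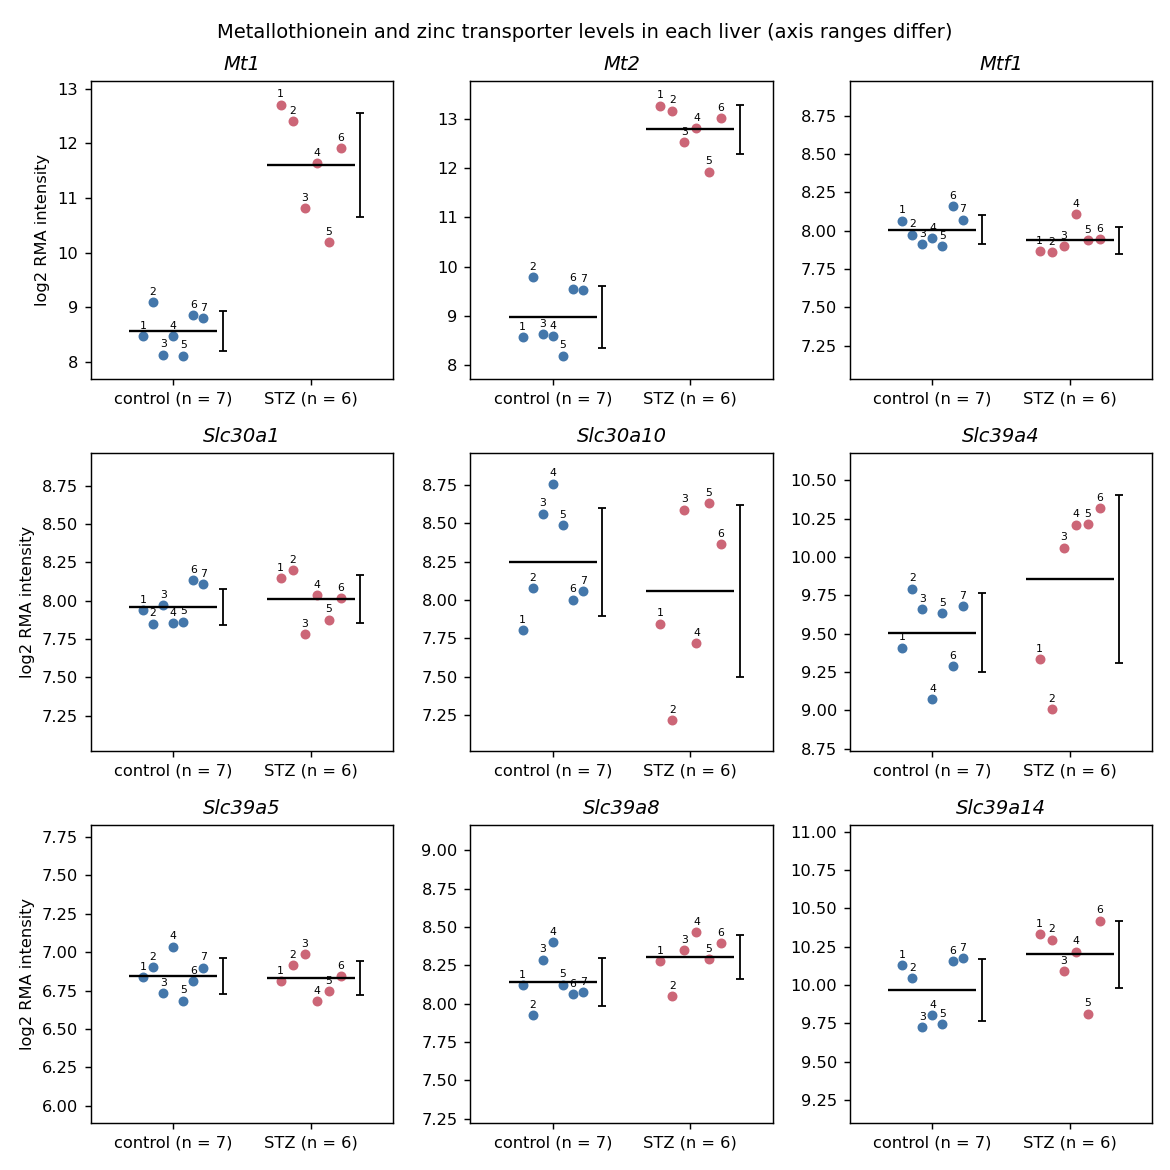
Log2 RMA intensity of each of the 9 genes in each liver, with 7 control arrays in blue and 6 STZ arrays in red; small digits are replicate numbers, horizontal lines are group means and bars at the side are ± 1 SD. Mt1 and Mt2 are higher in all 6 STZ livers than in any control, while the groups overlap for the other 7 genes, whose means differ by -0.19 to 0.35.

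The remaining 7 genes had log2 differences between -0.19 and 0.35, and none passed in limma (adjusted p = 0.219 to 0.958). At an unadjusted p under 0.05 there was 1 of the 7, Slc39a14, beside 4156 of all 19938 genes. The exact rank-sum test called none of the 7, beside 1088 of all genes. The interval farthest from 0, that of Slc39a4, reached 0.76, or 1.70-fold. None of the 7 intervals reached the lower bound for Mt1.

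Mtf1, the zinc-sensing activator itself, ran from 7.90 to 8.16 in controls (median 7.97) and from 7.86 to 8.11 in STZ livers (median 7.92). Apart from STZ replicate 4 the STZ values lay in the lower part of the control range or just under it. The log2 difference was -0.07 ± 0.06 with a 95% interval of -0.19 to 0.05 (adjusted p = 0.571 in limma), and without control replicate 6 the difference was -0.04. The transcript level says nothing of how much MTF-1 protein is bound to zinc or in the nucleus.

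Slc30a1, which encodes the plasma membrane zinc exporter ZnT1, ran from 7.85 to 8.14 in controls (median 7.94) and from 7.78 to 8.20 in STZ livers (median 8.03). STZ replicates 1 and 2 were above all controls and replicate 3 was below them, with the other 3 inside the control range. Its log2 difference was 0.05 ± 0.07, with a 95% interval of -0.11 to 0.21 (adjusted p = 0.790), so the interval on the linear scale ended at 1.15-fold. Over the fits that left out 1 array the difference ran from 0.01 (without STZ replicate 2) to 0.10 (without STZ replicate 3) and did not pass. It moved by over 1.5 times also without STZ replicates 1 (0.02) and 5 (0.08) and without control replicates 2 (0.03), 4 (0.03) and 6 (0.08).

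Slc30a10, known chiefly as a manganese exporter of hepatocytes, varied more between mice than Mtf1 or Slc30a1 in both groups. It ran from 7.80 to 8.76 in controls (median 8.08) and from 7.21 to 8.63 in STZ livers (median 8.10). STZ replicates 2 and 4 were below all controls, while 3 other STZ livers lay in the upper part of the control range. The log2 difference was -0.19 ± 0.21 (adjusted p = 0.705), and its 95% interval of -0.64 to 0.26 was the widest of the 7. Single arrays decided its size: it was -0.02 without STZ replicate 2, -0.29 without STZ replicate 3, -0.30 without STZ replicate 5, -0.12 without STZ replicate 4 and -0.10 without control replicate 4, and passed in none of these fits.

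Among the importers, Slc39a14 encodes ZIP14, which carries zinc, manganese and iron not bound to transferrin into hepatocytes. It ran from 9.73 to 10.18 in controls (median 10.04) and from 9.82 to 10.42 in STZ livers (median 10.26). In 4 of 6 STZ livers it was above all controls, and STZ replicate 5 was near the low end of the controls. The log2 difference was 0.23 ± 0.10 (95% interval 0.01 to 0.44, unadjusted p = 0.0435, adjusted p = 0.219 in limma across all genes). Without STZ replicate 5 it was 0.30 and passed, at an adjusted p of 0.0470.

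Slc39a4 encodes ZIP4, the importer whose loss causes acrodermatitis enteropathica, a hereditary zinc deficiency. Its levels ran from 9.07 to 9.79 in controls (median 9.64) and from 9.01 to 10.32 in STZ livers (median 10.14). STZ replicates 3 to 6 were above every control, whereas replicate 1 was within and replicate 2 just under the control range. The SD was 0.26 in controls and 0.55 in STZ livers, and the log2 difference of 0.35 ± 0.19 did not pass (95% interval -0.06 to 0.76, adjusted p = 0.332). Over the 22 alternatives the difference ran from 0.15 to 0.53 and passed in none. The lowest value came from STZ replicates 1 to 4 alone, the arrays of consecutive label numbers. Without STZ replicate 2 it was 0.52 (adjusted p = 0.0539 in limma). Without STZ replicate 1 it was 0.46, and without STZ replicate 6 it was 0.26.

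Slc39a8 encodes ZIP8, an importer of zinc and manganese. It ran from 7.92 to 8.40 in controls (median 8.12) and from 8.05 to 8.47 in STZ livers (median 8.32), with 1 STZ liver above all controls. The log2 difference was 0.16 ± 0.08, with a 95% interval that ended just below 0 and at 0.33 (adjusted p = 0.253). Slc39a5, which encodes the basolateral importer ZIP5, ran from 6.68 to 7.04 in controls (median 6.84) and from 6.68 to 6.99 in STZ livers (median 6.83). Its difference of -0.01 ± 0.06 (95% interval -0.15 to 0.13, adjusted p = 0.958) was the smallest of the 9 and took either sign under other settings. Slc39a5 lay near the median gene (6.65), and whether the arrays compress differences at this level was not tested.

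Both transporter families were read as a whole. Of 24 measured ZnT and ZIP genes, 1 rose and none fell, a share of 4.17% against 9.12% of all genes, with a median log2 difference of 0.00338. The gene that rose was Slc39a13, which encodes ZIP13, a carrier of intracellular membranes (0.19 ± 0.05, adjusted p = 0.0344), and it lost its call in 8 of 13 fits that each left out 1 array. The number of ZnT and ZIP genes that passed was 0 to 3 in those fits, lowest for example without STZ replicate 2 and highest without STZ replicate 5. All 8 other ZnT genes had differences between -0.07 and 0.02. Slc39a10, which MTF-1 is reported to repress, had a difference of -0.21 ± 0.07 and did not pass (adjusted p = 0.0628). Neither of the other metallothioneins passed. Mt3, known mainly from the brain, differed by -0.07 ± 0.08 (adjusted p = 0.734) and Mt4, known from squamous epithelium, by -0.02 ± 0.08 (adjusted p = 0.931).

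**Figure D2:**
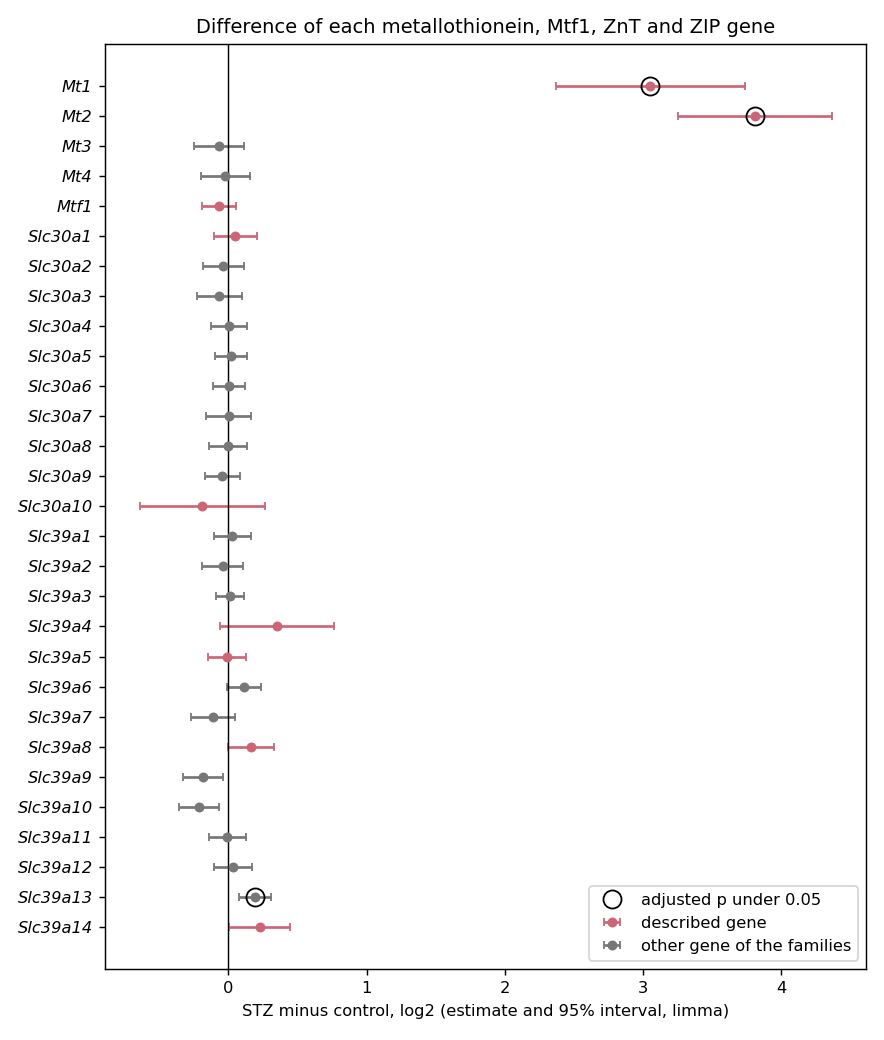
Difference of STZ minus control livers on the log2 scale for every measured metallothionein, Mtf1, ZnT (Slc30a) and ZIP (Slc39a) gene, with the estimate and 95% interval of limma; the 9 described genes are in red, the other genes of the families in grey, and black rings mark an adjusted p under 0.05. Mt1 (3.05) and Mt2 (3.81) stand far to the right, Slc39a13 (0.19) is the third ringed gene, and every other interval stays below 1.

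Variation between mice of 1 group was not used to pick the genes, so it was tested. Mt1 was compared with each of the other 8 genes within controls and within STZ livers, 16 relations in all, by an exact permutation test of the pairings, 2-sided, with Benjamini-Hochberg adjustment over the 16. Relations with Mt2 in both groups were the only 2 of the 16 that passed. In STZ livers the order of the 6 mice was the same for Mt1 and Mt2, with Pearson r = 0.978 (exact permutation p = 0.00139, adjusted p = 0.0222) and Spearman rho = 1 (exact permutation p = 0.00278, adjusted p = 0.0444). Without the 2 arrays farthest from the Mt1 median r was 0.980. In controls r was 0.935 (exact permutation p = 0.00337, adjusted p = 0.0270) and rho 0.893 (exact permutation p = 0.0123, adjusted p = 0.0984), so the rank relation did not pass there. Control Mt2 values formed a lower set (replicates 1, 3, 4 and 5) and a higher set (replicates 2, 6 and 7), and these sets are too small for a relation within each. Without the 2 farthest controls r was 0.849.

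With the transporters and Mtf1 no relation passed. In STZ livers Mt1 and Slc30a1 had r = 0.894 (exact permutation p = 0.0222, adjusted p = 0.0889) and rho = 0.829 (exact permutation p = 0.0583, adjusted p = 0.212), and r = 0.831 without the 2 farthest arrays. In controls r was 0.292 for this pair. Mt1 and Slc39a14 had r = 0.888 in STZ livers (exact permutation p = 0.0153, adjusted p = 0.0815) and rho = 0.829 (exact permutation p = 0.0583, adjusted p = 0.212), but r = 0.240 without the 2 farthest arrays, so the value rests on those. In controls r was 0.776 for Mt1 and Slc39a14 (exact permutation p = 0.0615, adjusted p = 0.197), and 0.849 without the 2 farthest controls. Slc30a10 and Slc39a4 ran the other way in STZ livers, at r = -0.767 (exact permutation p = 0.0833, adjusted p = 0.222) and r = -0.674 (exact permutation p = 0.140, adjusted p = 0.255).

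**Figure D3:**
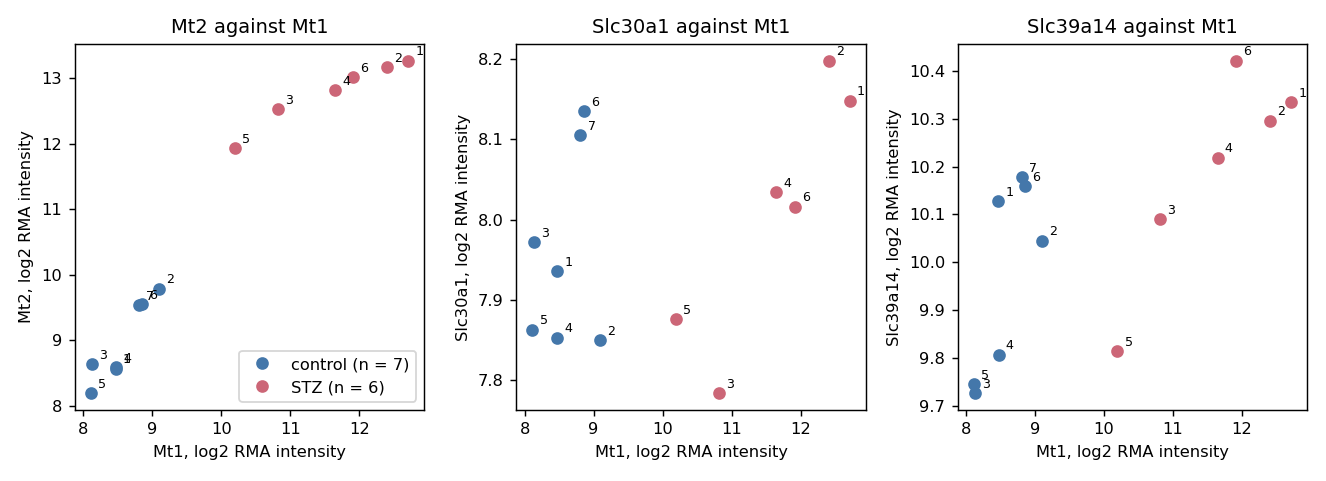
Log2 RMA intensity of Mt2, Slc30a1 and Slc39a14 (vertical axes) against that of Mt1 (horizontal axes) in each liver, with 7 controls in blue, 6 STZ livers in red and replicate numbers beside the points. Mt2 follows Mt1 within the STZ group (r = 0.978), and the vertical ranges of Slc30a1 and Slc39a14 are narrow and overlap between the groups although Mt1 differs by 3.05.

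The genes whose deviations from their group means were most like the mean deviation of Mt1 and Mt2 over the 13 arrays were Arhgap31 (r = 0.920), Ccdc169 (0.917), 3010003L21Rik (0.912), Zbtb3 (0.905) and Samd14 (0.891). None of these 5 passed between the groups (adjusted p = 0.534 to 0.854 in limma), and their SDs within a group were 0.04 to 0.18. Of the 19929 other genes, the most alike 1% had an r of at least 0.732. These values are a description.

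Genes of the routes known to act on metallothionein transcription were read from lists, beside which stand the 9.12% of all genes that passed and their median of -0.01. Among 5 measured other targets reported for MTF-1, 1 rose, Csrp1, which encodes a LIM-domain protein with zinc fingers (0.64 ± 0.09, adjusted p = 0.000244), with 6 of 6 STZ livers above all controls. Gclc (0.11 ± 0.11), Selenow (0.12 ± 0.07) and Ndrg1 (0.37 ± 0.16) did not pass. The list median was 0.12. Without STZ replicate 3 the count was 2.

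Of 12 measured glucocorticoid-responsive genes, 3 rose and 1 fell, with a list median of 0.19. Sgk1, a serum- and glucocorticoid-induced kinase, rose by 0.90 ± 0.18 (adjusted p = 0.00453), Ddit4, an inhibitor of mTOR signalling, by 0.49 ± 0.10 (adjusted p = 0.00464) and Fkbp5, a chaperone partner of the glucocorticoid receptor, by 0.74 ± 0.22 (adjusted p = 0.0458). Nr3c1, the receptor gene itself, fell by 0.23 ± 0.06 on the log2 scale (adjusted p = 0.0298). Tsc22d3 (0.19 ± 0.16), Per1 (0.37 ± 0.42) and Tat (0.19 ± 0.07) did not pass, nor did Lpin1, whose difference was the largest in size among those not called and negative (-0.60 ± 0.30, adjusted p = 0.270). Dusp1 (-0.01 ± 0.15), Klf9 (0.05 ± 0.08) and Errfi1 (0.06 ± 0.08) were near 0, and Zbtb16 differed by 0.40 ± 0.26. Fkbp5 lost its call in 10 and Nr3c1 in 7 of the 13 fits that left out 1 array, the count of the list was 2 without STZ replicate 2, and the exact rank-sum test called none of this list.

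Of 24 acute phase and interleukin-6 pathway genes, 7 rose and none fell, with a list median of 0.27. The iron-siderophore binder Lcn2 (3.21 ± 0.40, adjusted p = 0.000101) and the orosomucoid genes Orm2 (2.90 ± 0.25, adjusted p = 2.51e-06) and Orm3 (2.73 ± 0.34, adjusted p = 0.000107), which are close paralogs, had increases near that of Mt1. Lbp, which binds lipopolysaccharide, rose by 0.72 ± 0.14. The receptor genes Il6ra (0.28 ± 0.19) and Il6st (-0.05 ± 0.05) did not pass, while Stat3 (0.64 ± 0.11), Socs3 (0.46 ± 0.10) and Itih3 (0.60 ± 0.15) rose. Saa1, Saa2, Hp, Fga, Fgb and Fgg, all textbook acute phase genes, did not pass. Saa2 differed by 1.40 ± 0.53 (95% interval 0.28 to 2.52, unadjusted p = 0.0171, adjusted p = 0.123) and Saa1 by 0.98 ± 0.66, both with wide scatter in STZ livers, up to 12.52 and 10.71. Hp differed by -0.06 ± 0.14.

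Of 16 oxidative stress and NRF2 genes, 5 rose and 1 fell, with a list median of 0.10. The quinone reductase Nqo1 rose by 1.76 ± 0.24 (adjusted p = 0.000207), sulfiredoxin Srxn1 by 0.74 ± 0.12, heme oxygenase Hmox1 by 0.70 ± 0.14 and glutathione reductase Gsr by 0.35 ± 0.08. Nfe2l2, the gene of NRF2 itself, rose by 0.32 ± 0.08 (adjusted p = 0.0130 in limma). The copper and zinc superoxide dismutase Sod1 fell by 0.18 ± 0.05 on the log2 scale (adjusted p = 0.0195). Hmox1 did not pass in the exact rank-sum test (adjusted p = 0.0985), and with the replicate block Gsr (adjusted p = 0.0638) and Sod1 (adjusted p = 0.0923) did not, which left 4 genes of this list.

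**Figure D4:**
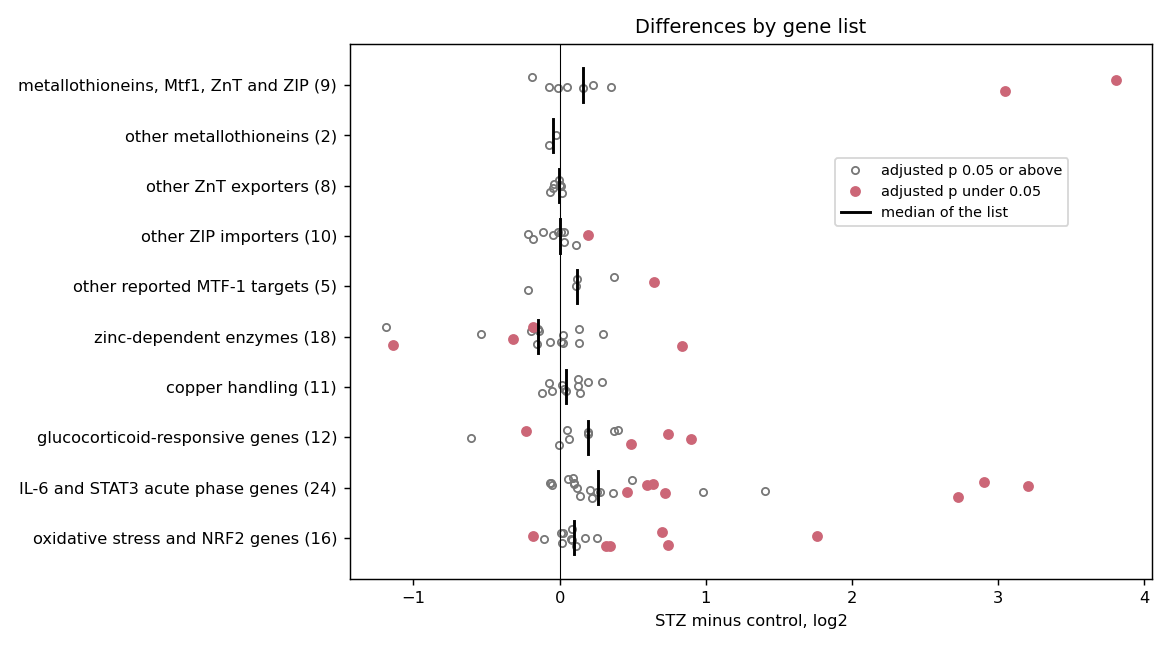
Difference of STZ minus control livers on the log2 scale for the measured genes of each list, whose number is in brackets; red filled points have a limma adjusted p below 0.05, open grey points do not, and black bars are list medians. Lcn2, Orm2 and Orm3 of the acute phase list are the genes beyond 2 besides Mt1 and Mt2, and no copper handling gene passed.

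Enzymes that need zinc and genes that handle copper, the other metal bound by metallothioneins, were examined as well. Beside both lists stand again the 9.12% of all genes that passed in limma. Of 18 measured zinc-dependent enzymes, 1 rose and 3 fell, with a list median of -0.15. Alkaline phosphatase Alpl rose by 0.84 ± 0.14 (adjusted p = 0.000792), and the membrane peptidases Mme (-1.14 ± 0.23, adjusted p = 0.00464) and Anpep (-0.32 ± 0.08, adjusted p = 0.0132) fell, as did Sod1. The alcohol dehydrogenase Adh1 (0.03 ± 0.04), the betaine methyltransferase Bhmt (0.02 ± 0.07) and the heme synthesis enzyme Alad (-0.15 ± 0.05) did not pass. Without STZ replicate 3 the count was 6. With the replicate block it was 2, and Anpep (adjusted p = 0.0614) and Sod1 (adjusted p = 0.0923) did not pass. Mme did not pass in the exact rank-sum test (adjusted p = 0.063). None of 11 copper handling genes passed in limma or in the exact rank-sum test, with a median of 0.05. The smallest p in that list was that of the metalloreductase Steap3 (0.29 ± 0.11, adjusted p = 0.129), and without STZ replicate 2 the count was 1.

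Markers of other cells of the liver were read beside these values. Of all genes, 9.12% passed in either direction and 5.09% passed as higher. Kupffer cell and macrophage markers were higher for 4 of 8 (Clec4f, Cd5l, Vsig4 and Cd68) and lower for none. The mean level of that list ran from 8.49 to 8.91 in controls and from 8.64 to 9.28 in STZ livers. Of 6 neutrophil markers none passed, all 6 lay under the median gene, and the list mean ran from 5.52 to 5.63 in controls and 5.55 to 5.83 in STZ livers. Of 8 sinusoidal endothelial markers 1 was higher, Lyve1, and of 7 stellate cell markers 1 was higher and 1 lower. None of 4 cholangiocyte and none of 5 exocrine pancreas markers passed, and 1 of 6 T and B cell markers, Cd4, was lower. Of 2 measured erythroid markers 1 was lower, Alas2 (-1.58 ± 0.26). The part of these cells in the metallothionein and acute phase differences was not tested.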

How the data were processed

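Affymetrix arrays measured liver RNA, 1 array per mouse (7 control, 6 STZ). For 35556 probe sets the authors deposited log2 intensity values. The submitters' processing notes name RMA and Affymetrix Expression Console 1.2. RMA equalises the distributions of the arrays, so a change in total RNA per cell would not be seen. Detection calls were not used here. For the annotation, version and build were not given in the sources used here. No batch is named in the labels, and the label numbers of the groups (1 to 7 and 29 to 42) do not overlap.

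Gene names came from the annotation of the platform (21789 probe sets with 1 symbol, 1621 with several and 12146 unnamed), and 21698 of the 21789 were found in the RefSeq table. Group means were tested with limma 3.58.1 (lmFit and eBayes, 2-sided) in R 4.3.3, on all 19938 genes, with no filter on dim genes, a threshold of 0.05, and intervals of 95% from the fit. The fit was tested on simulated data with known changes. The number of arrays limits the precision. The labels call the arrays of a group biological replicates. The genes and lists were chosen with earlier results of these data known. Named were all 9 genes, in each other list up to 4 genes that passed with the largest absolute difference or the gene with the smallest p, and the 5 genes most like Mt1 and Mt2 within groups. Further list genes given for context (among them Gclc, Selenow, Ndrg1, Slc39a10, Mt4, Stat3, Socs3, Itih3, Il6ra, Il6st, Hp, Saa1, Saa2, Fga, Fgb, Fgg, Tat, Tsc22d3, Per1, Lpin1, Dusp1, Klf9, Errfi1, Zbtb16, Nfe2l2, Adh1, Bhmt, Alad and the cell markers) were picked after their values were seen. The settings varied were a minimum level at the median gene, trend and robust variance, array weights, an exact rank-sum test, the mean of all probe sets, adjustment over all probe sets, median centring, the replicate number as a block, the STZ arrays of label numbers 29 to 32 alone, and each array left out.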

Additional observations from a re-analysis of the deposited data

Results flagged for a closer look

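Of 18 groups of values, the 9 genes in each of 2 groups, 1 held an array far from the others by Dixon's ratio, and chance alone gives about 1 in 20. It was Mtf1 in STZ replicate 4, the highest of its group at 8.11, where the other 5 STZ livers lay between 7.86 and 7.95. Without that array the Mtf1 difference was -0.10 and still did not pass in limma (adjusted p = 0.349). In the same array the levels of Mt1 (11.65) and Mt2 (12.82) were near the mean of the STZ livers.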

How the results depend on the processing

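For the 9 genes, 22 alternatives each gave 198 values, of which 191 kept their direction and their side of the threshold, 2 newly passed, 5 changed sign and none lost a call. The minimum level, trend and robust variance, mean of all probe sets and adjustment over all probe sets left each of the 9 differences unchanged. Those settings could change the adjusted p but not a direction, so the 191 overstate how far directions were put to a test. Mt1 ranged from 2.83 to 3.34 (adjusted p = 6.70e-07 to 0.0302) and Mt2 from 3.68 to 3.98 (6.96e-08 to 0.0302). The highest p of both came from the exact rank-sum test. Slc39a14 was 0.30 without STZ replicate 5 and 0.26 with the replicate block, passing in both, so 3 of the 9 genes passed there. Over the fits that left out 1 array, 2 to 3 of the 9 genes and 1399 (without STZ replicate 4) to 2168 (without STZ replicate 5) of all genes passed, against 1819 with all arrays. Slc39a5 ranged from -0.042 (without STZ replicate 3) to 0.021 and changed sign, to 0.007 with the STZ arrays of consecutive label numbers, 0.001 in the rank-sum test, 0.019 without STZ replicate 4, 0.006 without STZ replicate 5 and 0.021 without control replicate 4. The rank-sum test called 1088 genes, the replicate block 1256, and Spearman's rho left 1 of the 2 relations of Mt1. The cause of these changes was not tested. Deviations of same-numbered control and STZ arrays correlated at -0.09 to 0.19. Differently numbered arrays were not compared, so whether the replicate numbers pair the mice was not tested. The alternatives for genes of the other lists were added after the data were seen.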

Other observations

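Carbonic anhydrase Car3, a zinc enzyme that is abundant in male mouse liver, was even across controls and scattered across STZ livers, and was chosen here after its values were seen. It ran from 13.54 to 13.61 in controls (SD 0.02, n = 7) and from 10.64 to 13.47 in STZ livers (SD 1.17, n = 6). All 6 STZ livers were below all controls, and the difference of -1.19 ± 0.36 did not pass in limma (adjusted p = 0.0519). It passed in the exact rank-sum test (adjusted p = 0.0302) and in 6 of 22 alternatives in all, with adjusted p between 0.00424 and 0.135. Control values of Car3 lay near the highest value of any array (14.14). The 5 measured hepatocyte markers were bright and even across controls too, with SDs from 0.008 (Ttr) to 0.05 (Apoa1). Whether the arrays compress signals this high was not tested.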
